A study of Homo sapiens with 18 samples.

Results

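The results concern 40 hypoxia and glycolysis genes in xenografts of the lines DCIS.COM and SUM225, collected 2, 6 and 10 weeks after injection. They were chosen by name, as genes of the response to low oxygen and of glucose breakdown, with earlier results of these data known. Their counts and shares therefore describe the list and are not an independent test of it. All 40 were found among the 19114 named genes of the arrays. Together they carried 87 of the 54613 probe sets tested, and each gene was read from its brightest named probe set by the mean of 18 arrays. Of the 40 genes, 16 had 1 named probe set and 24 had several. Probe sets took their gene names from the submitters' tables of probe sets called between 2 and 6 weeks, so the shares of all named genes given below are shares of genes named in this way.

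As background, cells that lack oxygen stop hydroxylating the HIF alpha subunits HIF1A and EPAS1. The stabilized subunits then pair with ARNT and switch on genes for glucose uptake, glycolysis, pH control, blood vessel growth and mitochondrial restraint. Carcinoma in situ fills ducts that hold no blood vessels, so hypoxia markers such as CA9 and the glucose transporter SLC2A1 are widely used in this tissue. Both arms also run in tumor cells with enough oxygen, since growth factor and MYC signaling raise many of the same enzymes.

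MIND (mouse intraductal) xenografts were made by injecting a human cell line into the mammary ducts of virgin female NSG mice, which lack mature lymphocytes but keep myeloid cells and stroma. DCIS.COM is a basal-like line and SUM225 an ERBB2-overexpressing line, and neither received another treatment. The glands of several mice were pooled per replicate, digested and magnetically sorted for EpCAM, and the RNA was hybridized to human expression arrays at 2, 6 and 10 weeks after injection. The 18 arrays formed 6 groups of 3 biological replicates, and each line stands for 1 tumor. Values are log2 intensities from RMA (robust multi-array average), in which a difference of 1 is a doubling of signal. A gene was called where its limma adjusted p (Benjamini-Hochberg over all probe sets) was under 0.05 in a comparison of 3 with 3 arrays. Probe sets differ in brightness, so values are compared between arrays and not between genes.

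Against their label as sorted epithelial cells, replicates 2 and 3 of SUM225 at 2 weeks had a lower median of epithelial markers than any other array, and replicate 3 the lowest. EPCAM, the protein used for the sort, read 12.73 in replicate 1, 11.72 in replicate 2 and 8.59 in replicate 3 of that group, and at least 12.81 on the 6 later SUM225 arrays. ERBB2 read 12.42, 11.32 and 9.21 on the same arrays. The median of 18 epithelial markers was 11.23, 10.14 and 7.99, while that of 16 measured leukocyte markers was 5.89, 6.38 and 6.83 against at most 5.51 on later SUM225 arrays. On those 3 arrays the medians of 10 endothelial, 9 fibroblast, 6 erythroid, 6 adipocyte and 8 muscle markers were also lowest in replicate 1 and highest in replicate 3. Cells of these types would be mouse cells of the host, while the probe sets are human, and what these probe sets read was not tested. The median of all probe sets was 5.61, 5.76 and 5.84 on those 3 arrays, against at most 5.51 on later SUM225 arrays. Correlations between the 3 replicates were 0.904, 0.760 and 0.926, and 0.966 or more within every other group. In DCIS.COM at 2 weeks the EPCAM values were 12.68, 12.11 and 12.40, and the leukocyte median lay between 6.02 and 6.19, against 5.45 to 5.84 later. In sorted bulk samples, fewer cells of a type and less RNA per cell cannot be told apart. The part of these values in the results that use a 2-week group was not tested, and the comparison of the lines at 6 and 10 weeks does not use those arrays.

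**Figure D1:**
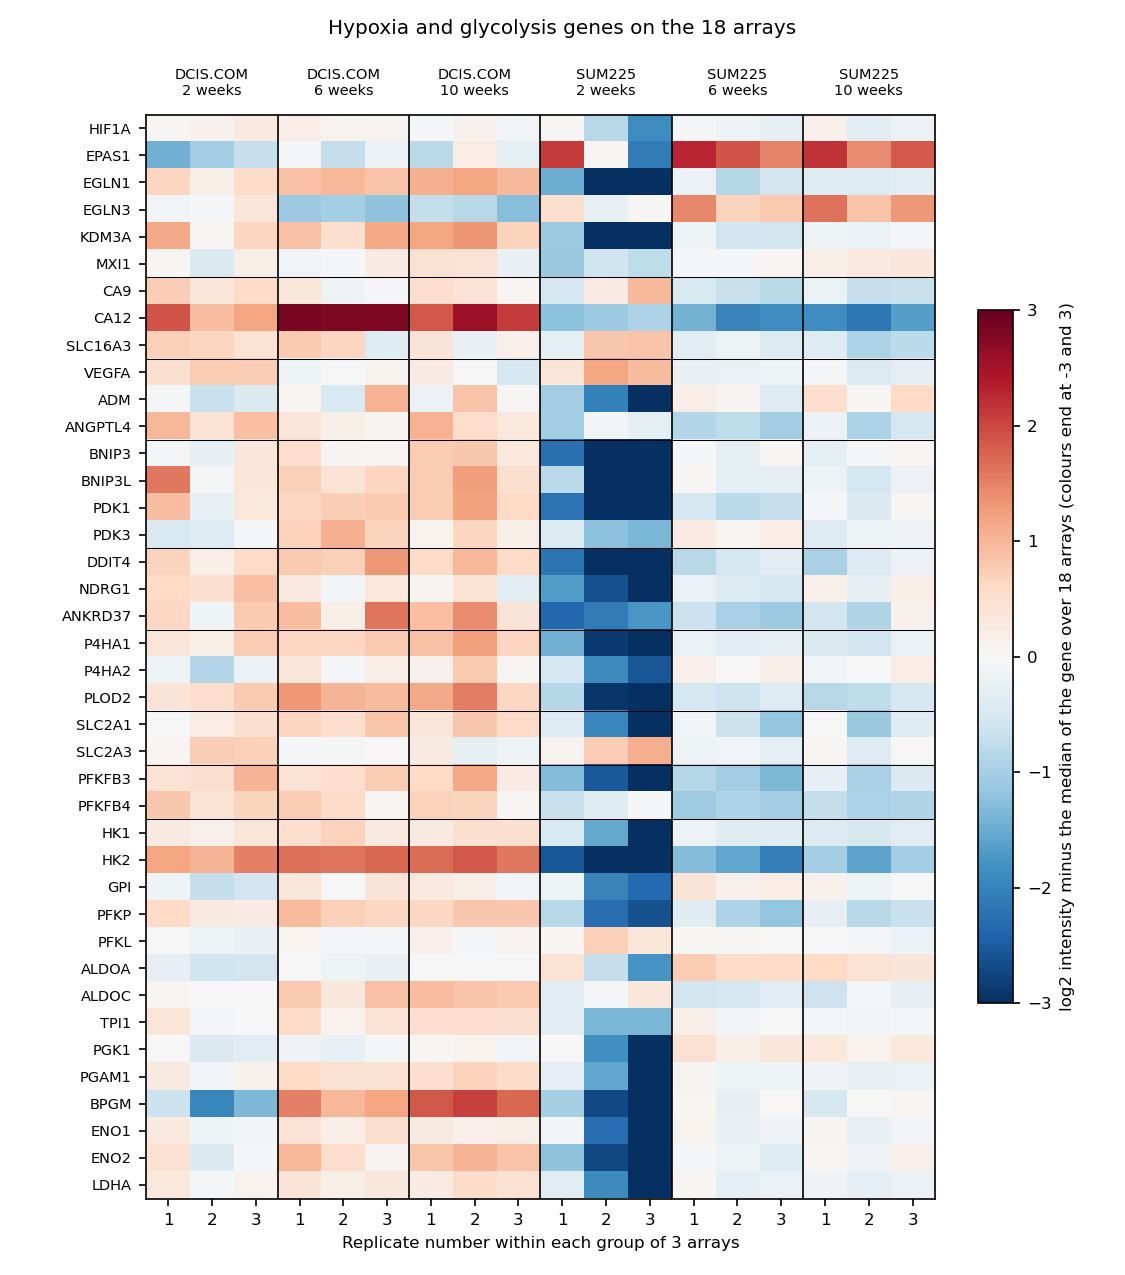
Heat map of the 40 genes (rows, grouped by role) on the 18 arrays (columns, 3 replicates per group), as log2 intensity minus the median of each gene over all arrays. Of the 40 genes, 29 had their lowest group mean in SUM225 at 2 weeks and 17 their highest in DCIS.COM at 10 weeks. The same was not counted over all named genes, so these numbers describe the 40 only. On replicate 3 of SUM225 at 2 weeks 40.5% of all named genes lay below all 6 later SUM225 arrays and 54.4% above.

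The first question was whether the 2 lines differed once the lesions were established. At 6 weeks 25 of the 40 genes were lower in SUM225 than in DCIS.COM and 4 were higher, where 17.3% of all named genes were called lower and 19.8% higher. At 10 weeks 26 were lower and 3 higher, against 15.9% and 16.4% of all genes. The median difference of the 40 genes was -0.67 at 6 weeks and -0.81 at 10 weeks, while that of all named genes was 0.02 and -0.01. Both weeks called 23 genes lower, which is 57.5% of the 40 against 14.0% of all genes, and 3 genes higher, which is 7.5% against 15% of all genes. The sign was the same at both weeks in 36 of the 40 genes, and the 2 sets of differences, which share no array, had a Pearson r of 0.97 across genes, given as a description.

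These counts moved little with any single array. Leaving out 1 array at a time gave 21 to 25 lower genes at 6 weeks and 24 to 26 at 10 weeks, with 4 and 2 to 3 higher. Of all named genes 14.2% to 17.0% were then lower at 6 weeks and 12.3% to 18.2% at 10 weeks. The shares called higher were 16.9% to 19.5% and 12.3% to 16.6%. One fit over all 18 arrays, which lends the wide spread of SUM225 at 2 weeks to every group, left 10 lower and 2 higher at 6 weeks and 12 lower at 10 weeks. Of all named genes that fit called 9.35% lower and 9.68% higher at 6 weeks and 10.1% lower at 10 weeks.

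**Figure D2:**
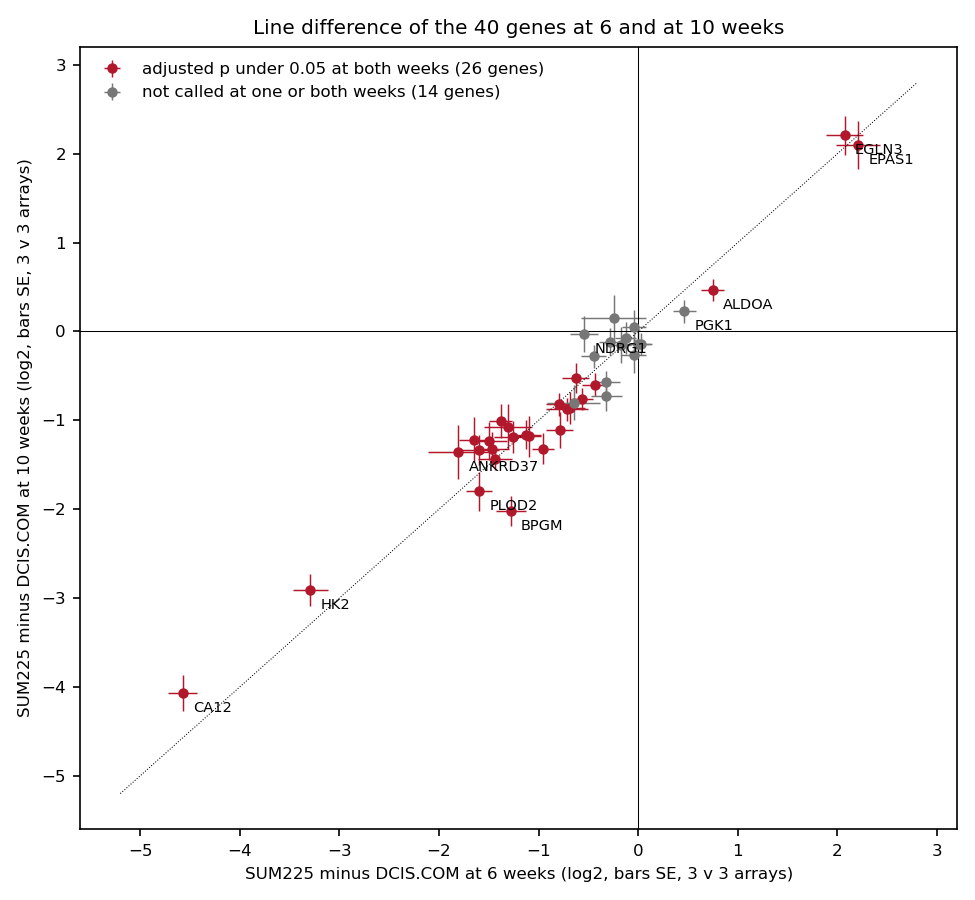
Difference between the lines (SUM225 minus DCIS.COM, log2, with SE bars) at 6 weeks on the x axis and at 10 weeks on the y axis for the 40 genes, with the line of equality dotted. The 26 genes called at both weeks are red, with CA12 and HK2 at the lower left and EPAS1 and EGLN3 at the upper right.

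Among the glycolytic enzymes, 9 of 14 were lower in SUM225 at 6 weeks and 9 at 10 weeks, with 2 higher at 6 weeks and 1 at 10 weeks. HK2, the inducible hexokinase that traps glucose as glucose 6-phosphate, set the lines furthest apart among them. In DCIS.COM it read 11.52, 11.34 and 11.84 at 2 weeks, 11.98, 11.93 and 12.04 at 6 weeks and 11.997, 12.20 and 11.91 at 10 weeks. In SUM225 it read 7.78, 6.88 and 5.49 at 2 weeks, 9.04, 8.77 and 8.27 at 6 weeks and 9.31, 8.74 and 9.31 at 10 weeks. No SUM225 array reached the lowest DCIS.COM array. HK2 was 9.80-fold lower in SUM225 at 6 weeks (log2 -3.29 ± 0.18 SE, adjusted p = 9.55e-07) and 7.54-fold lower at 10 weeks (-2.91 ± 0.18 SE, adjusted p = 3.69e-06). HK1, the hexokinase of most tissues, differed by less, -0.79 ± 0.13 (SE) and -0.82 ± 0.13 (SE) on the log2 scale.

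BPGM diverts glycolysis through 2,3-bisphosphoglycerate. Its DCIS.COM values were 6.23, 4.91 and 5.52 at 2 weeks, 8.37, 7.86 and 8.04 at 6 weeks and 8.72, 8.92 and 8.60 at 10 weeks. In SUM225 it read 5.87, 4.16 and 3.19 at 2 weeks, 6.92, 6.63 and 6.88 at 6 weeks and 6.39, 6.86 and 6.92 at 10 weeks. At 6 and at 10 weeks every DCIS.COM array was above every SUM225 array, and the difference was -1.28 ± 0.15 (SE, adjusted p = 0.000144) and -2.02 ± 0.17 (SE, adjusted p = 2.58e-05). PFKP, the platelet-type phosphofructokinase, read 11.62, 11.38 and 11.29 at 6 weeks and 11.27, 11.47 and 11.48 at 10 weeks in DCIS.COM and 10.29, 9.74 and 9.47 at 6 weeks and 10.41, 9.83 and 9.98 at 10 weeks in SUM225. It was lower in SUM225 by 3.02-fold and 2.52-fold, with no overlap of arrays. Smaller differences in the same direction were called at both weeks for ALDOC, PGAM1, ENO2 and LDHA, the lactate dehydrogenase subunit, which was 1.36-fold and 1.51-fold lower.

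The enzymes called higher were ALDOA and PGK1. ALDOA, the main aldolase, read 11.99, 11.84 and 11.77 at 6 weeks and 11.99, 12.01 and 11.98 at 10 weeks in DCIS.COM and 12.74, 12.55 and 12.55 at 6 weeks and 12.58, 12.44 and 12.38 at 10 weeks in SUM225. All 6 SUM225 arrays were above all 6 DCIS.COM arrays, by 0.75 ± 0.11 (SE, adjusted p = 0.000753) and 0.47 ± 0.12 (SE, adjusted p = 0.0180), although the call at 10 weeks was lost without replicate 1 (adjusted p = 0.0756) or replicate 2 (adjusted p = 0.0585) of SUM225. PGK1, the first ATP-making step, read 12.37, 11.94 and 12.04 at 2 weeks, 12.27, 12.15 and 12.31 at 6 weeks and 12.40, 12.47 and 12.30 at 10 weeks in DCIS.COM. In SUM225 it read 12.38, 10.54 and 8.14 at 2 weeks, 12.84, 12.57 and 12.71 at 6 weeks and 12.68, 12.49 and 12.68 at 10 weeks. SUM225 was higher at 6 weeks (0.46 ± 0.11 SE, adjusted p = 0.0127) and was not called at 10 weeks (0.22 ± 0.13 SE, adjusted p = 0.261). Its 6 probe sets split, since 2 were called higher at 6 weeks while 2 were called lower at both weeks, 1 of them by -0.45 and -0.62. ENO1, the main enolase, was called lower at 6 weeks only (-0.45 ± 0.13 SE) and TPI1, the triose phosphate isomerase, at 10 weeks only (-0.57 ± 0.12 SE), against -0.28 ± 0.13 and -0.32 ± 0.14 (SE) at the other week. Of the 3 TPI1 probe sets, however, 1 was called lower at 6 weeks and 3 at 10 weeks. GPI and PFKL were called at neither week, and the 95% interval of the GPI difference at 6 weeks was -0.30 to 0.31.

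The regulators of glycolysis and 1 of the 2 glucose transporters were lower in SUM225 too. PFKFB3 and PFKFB4, which make the activator of phosphofructokinase, differed by -1.65 ± 0.15 and -1.47 ± 0.17 (SE) at 6 weeks and by -1.22 ± 0.25 and -1.32 ± 0.19 (SE) at 10 weeks, all called. SLC2A1, the GLUT1 transporter, was 2.48-fold and 2.10-fold lower (adjusted p = 0.00224 and 0.0124). SLC2A3, the GLUT3 transporter, lay between 4.80 and 5.45 on all later arrays and was not called. SLC16A3, the lactate exporter MCT4, was called lower on its brightest probe set at 10 weeks only (-0.80 ± 0.20 SE, adjusted p = 0.0138), beside -0.65 ± 0.26 (SE, adjusted p = 0.101) at 6 weeks, and whether the 2 weeks differ was not called in a test of the difference in change (adjusted p = 1.0). Of its 5 probe sets 2 were called lower at 6 weeks and 3 at 10 weeks.

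CA12 had the widest difference of the 40 genes. It encodes a membrane carbonic anhydrase that, with CA9, turns exported carbon dioxide into bicarbonate. In DCIS.COM it read 10.87, 9.91 and 10.17 at 2 weeks, 11.84, 11.80 and 11.78 at 6 weeks and 10.84, 11.56 and 11.09 at 10 weeks. In SUM225 it read 7.76, 7.89 and 8.06 at 2 weeks, 7.56, 7.003 and 7.12 at 6 weeks and 7.12, 6.83 and 7.34 at 10 weeks. No SUM225 array came within the range of DCIS.COM. SUM225 was 23.8-fold lower at 6 weeks (-4.58 ± 0.15 SE, adjusted p = 3.87e-08) and 16.8-fold lower at 10 weeks (-4.07 ± 0.21 SE, adjusted p = 1.14e-06), and already 5.32-fold lower at 2 weeks (adjusted p = 0.0104). The call at 2 weeks, which uses the SUM225 arrays with low EPCAM, was lost without SUM225 replicate 2 (adjusted p = 0.0791) or DCIS.COM replicate 3 (adjusted p = 0.0631) and with the arrays quantile normalized again (adjusted p = 0.0679). All 7 CA12 probe sets were called lower at 6 weeks, and 6 of them at 10 weeks. CA9 read 6.85, 6.36 and 6.46 at 6 weeks and 7.03, 6.95 and 6.56 at 10 weeks in DCIS.COM and 6.06, 5.84 and 5.69 at 6 weeks and 6.30, 5.81 and 5.84 at 10 weeks in SUM225. Its difference of -0.69 ± 0.16 and -0.86 ± 0.18 (SE) was called at both weeks (adjusted p = 0.00756 and 0.00631).

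The oxygen sensors and HIF subunits did not move as a block. EPAS1, the HIF2 alpha subunit, read 6.02, 6.41 and 6.75 at 2 weeks, 7.38, 6.74 and 7.28 at 6 weeks and 6.63, 7.68 and 7.16 at 10 weeks in DCIS.COM. In SUM225 it read 9.56, 7.52 and 5.36 at 2 weeks, 9.75, 9.33 and 8.95 at 6 weeks and 9.62, 8.87 and 9.29 at 10 weeks. At 6 and 10 weeks SUM225 was 4.61-fold and 4.29-fold higher (2.21 ± 0.22 and 2.10 ± 0.27 SE, adjusted p = 5.33e-05 and 0.000364) with no overlap, while its other probe sets, of which neither was called at either week, differed by 0.11 and -0.19 at 6 weeks. HIF1A read 12.56, 12.48 and 12.45 at 6 weeks and 12.35, 12.49 and 12.29 at 10 weeks in DCIS.COM and 12.31, 12.25 and 12.07 at 6 weeks and 12.53, 12.06 and 12.19 at 10 weeks in SUM225. The lines were apart at 6 weeks and overlapped at 10 weeks. The HIF1A difference was -0.29 ± 0.11 (SE, adjusted p = 0.0868) and -0.11 ± 0.15 (SE, adjusted p = 0.691), with 95% intervals of -0.53 to -0.04 and -0.46 to 0.23.

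EGLN1 and EGLN3, prolyl hydroxylases that mark the HIF alpha subunits for destruction, went opposite ways between the lines. EGLN3 read 7.58, 7.62 and 8.03 at 2 weeks, 6.58, 6.65 and 6.45 at 6 weeks and 6.94, 6.82 and 6.39 at 10 weeks in DCIS.COM. In SUM225 it read 8.20, 7.45 and 7.71 at 2 weeks, 9.11, 8.34 and 8.44 at 6 weeks and 9.29, 8.52 and 8.96 at 10 weeks. From 6 weeks on the lowest SUM225 array was above the highest DCIS.COM array, and EGLN3 was 4.20-fold and 4.61-fold higher (adjusted p = 2.84e-05 and 6.76e-05). EGLN1 read 10.46, 10.57 and 10.44 at 6 weeks and 10.64, 10.77 and 10.55 at 10 weeks in DCIS.COM and 9.41, 8.71 and 9.03 at 6 weeks and 9.21, 9.19 and 9.24 at 10 weeks in SUM225, without overlap. It was 2.71-fold lower in SUM225 at both weeks. KDM3A, a histone demethylase induced by HIF, was lower as well (-1.26 ± 0.19 and -1.19 ± 0.18 SE), and MXI1, a MYC antagonist, was not called (-0.05 ± 0.12 and 0.05 ± 0.19 SE).

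The mitochondrial switches were lower in SUM225 in 3 of 4 genes at 6 weeks and in 4 of 4 at 10 weeks. PDK1, a pyruvate dehydrogenase kinase, read 9.34, 9.46 and 9.49 at 6 weeks and 9.49, 9.93 and 9.32 at 10 weeks in DCIS.COM and 8.19, 7.92 and 8.03 at 6 weeks and 8.69, 8.28 and 8.75 at 10 weeks in SUM225. It was 2.61-fold and 2.01-fold lower, with the lines apart at both weeks. PDK3 was lower by less (-0.63 ± 0.14 and -0.52 ± 0.17 SE), and its call at 10 weeks (adjusted p = 0.0483) was kept only when DCIS.COM replicate 1 was the array left out (adjusted p = 0.0262), and without each of the other 5 arrays in turn the adjusted p was 0.059 to 0.154. BNIP3 and BNIP3L, receptors for mitophagy, differed by -0.32 ± 0.16 (SE, not called) and -0.79 ± 0.13 (SE) at 6 weeks and by -0.72 ± 0.17 and -1.11 ± 0.20 (SE) at 10 weeks.

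Of the stress-induced regulators, DDIT4, an inhibitor of mTORC1, was 2.83-fold and 2.35-fold lower in SUM225 (adjusted p = 0.000185 and 0.00196). ANKRD37, an ankyrin-repeat gene induced by HIF, read 9.74, 9.003 and 10.43 at 6 weeks and 9.73, 10.24 and 9.22 at 10 weeks in DCIS.COM and 8.18, 7.85 and 7.73 at 6 weeks and 8.25, 7.92 and 8.94 at 10 weeks in SUM225, without overlap within a week, and it was called at both weeks. NDRG1 was called lower at 6 weeks only (-0.55 ± 0.14 SE, adjusted p = 0.0140), lost that call without DCIS.COM replicate 1 (adjusted p = 0.0598) or SUM225 replicate 2 (0.0548) or 3 (0.058), and differed by -0.03 ± 0.20 (SE) at 10 weeks. Among the collagen hydroxylases, PLOD2, which hydroxylates lysines for collagen cross-links, read 11.23, 10.95 and 10.86 at 6 weeks and 11.06, 11.46 and 10.54 at 10 weeks in DCIS.COM and 9.40, 9.31 and 9.53 at 6 weeks and 9.10, 9.15 and 9.42 at 10 weeks in SUM225. With no overlap PLOD2 was 3.03-fold and 3.47-fold lower and P4HA1, a collagen prolyl hydroxylase, differed by -0.96 ± 0.11 and -1.32 ± 0.17 (SE, both called), whereas P4HA2 was not called.

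Of the 3 secreted factors 1 was called at either week. ANGPTL4, an inhibitor of lipoprotein lipase, was 2.14-fold and 2.26-fold lower in SUM225 (adjusted p = 0.000115 and 0.00441). VEGFA, the main vessel growth factor, differed by -0.18 ± 0.11 and -0.15 ± 0.20 (SE) and ADM, the peptide adrenomedullin, by -0.25 ± 0.33 and 0.15 ± 0.26 (SE), none of them called, although 2 of the 4 VEGFA probe sets were called higher in SUM225 at both weeks.

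**Figure D3:**
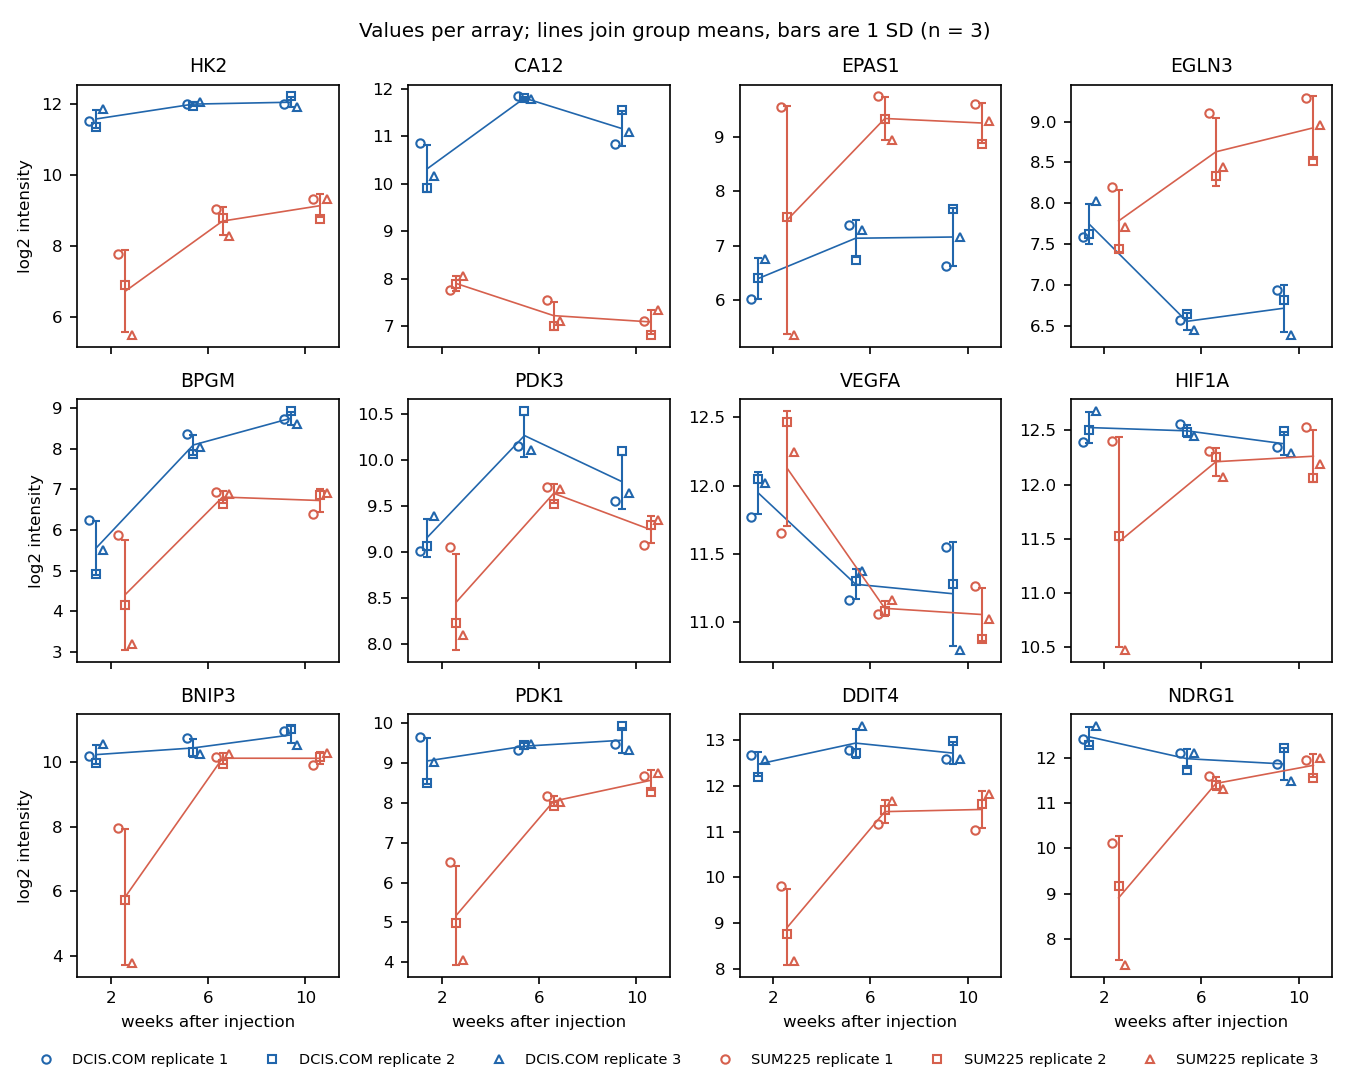
Log2 intensity per array for 12 of the genes by week after injection (x axis), DCIS.COM in blue and SUM225 in red, with markers for the 3 replicates, lines through group means and bars of 1 SD. HK2 and CA12 stayed apart between the lines at every week, while EPAS1, BNIP3, PDK1, DDIT4 and NDRG1 spread widely among the 3 SUM225 arrays of 2 weeks.

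Promoters were read for the genes the line difference turned on. The core letters of the HIF response element, ACGTG on either strand (also held in the E-box CACGTG, where it counts on both strands), stood in the 250 bases before a start site in 23 of the 36 genes with an entry, which is 63.9%, against 21.7% of 27305 genes in the same RefSeq table. By promoter the shares were 43.3% of 60 and 18.5% of 35116. Among matched genes lower in SUM225 at 10 weeks, 19 of 25 held it, as did 1 of 3 called higher and 3 of 8 not called. By the calls at 6 weeks the counts were 16 of 23 lower, 2 of 4 higher and 5 of 9 not called. The letters GCGTG, the other common core, stood in 22 of 36 genes (61.1%) against 36.2%, and by the calls at 10 weeks in 15 of 25 lower, 1 of 3 higher and 6 of 8 not called. The sequences below are 1 start site per gene from RefSeq (GRCh38.p14), 5′ to 3′ on the gene's strand, with ACGTG or its complement CACGT in capitals. Where a gene had more than 1 start, the start with the most ACGTG matches was picked. For HK2, PDK1 and LDHA the start shown holds 4, 2 and 5 matches by this count, and the start not shown 2, 0 and 0. They show genes with a wide line difference, classic targets, and EPAS1 and EGLN3, 2 of the 3 genes called higher in SUM225 at both weeks. A match is a description of letters and not of binding.
HK2 (chr2:74834920-74835169, plus strand): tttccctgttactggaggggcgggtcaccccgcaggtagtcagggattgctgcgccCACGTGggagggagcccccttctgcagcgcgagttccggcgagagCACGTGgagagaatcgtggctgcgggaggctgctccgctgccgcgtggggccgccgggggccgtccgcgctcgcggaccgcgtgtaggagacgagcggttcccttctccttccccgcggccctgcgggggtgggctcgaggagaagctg
BNIP3 (chr10:131981924-131982173, minus strand): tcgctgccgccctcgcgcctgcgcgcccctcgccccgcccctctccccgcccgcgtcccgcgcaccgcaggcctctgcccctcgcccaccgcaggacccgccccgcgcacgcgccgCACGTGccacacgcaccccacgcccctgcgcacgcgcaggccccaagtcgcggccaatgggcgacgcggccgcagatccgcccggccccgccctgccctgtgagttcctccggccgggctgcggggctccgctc
PDK1 (chr2:172555840-172556089, plus strand): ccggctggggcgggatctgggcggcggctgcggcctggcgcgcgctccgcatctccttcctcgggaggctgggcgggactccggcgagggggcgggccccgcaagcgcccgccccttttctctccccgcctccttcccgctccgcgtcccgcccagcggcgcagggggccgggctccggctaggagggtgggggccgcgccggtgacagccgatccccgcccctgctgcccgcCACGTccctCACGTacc
LDHA (chr11:18394313-18394562, plus strand): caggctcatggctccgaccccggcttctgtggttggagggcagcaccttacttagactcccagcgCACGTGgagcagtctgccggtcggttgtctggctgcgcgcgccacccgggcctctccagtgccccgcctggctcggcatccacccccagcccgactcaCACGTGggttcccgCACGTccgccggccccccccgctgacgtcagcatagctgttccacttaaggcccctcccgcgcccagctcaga
BPGM (chr7:134646603-134646852, plus strand): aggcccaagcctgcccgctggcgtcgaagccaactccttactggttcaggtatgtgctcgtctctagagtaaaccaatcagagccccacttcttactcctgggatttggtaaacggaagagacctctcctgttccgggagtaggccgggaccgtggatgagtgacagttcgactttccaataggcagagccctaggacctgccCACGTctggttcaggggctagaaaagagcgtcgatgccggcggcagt
CA12 (chr15:63381847-63382096, minus strand): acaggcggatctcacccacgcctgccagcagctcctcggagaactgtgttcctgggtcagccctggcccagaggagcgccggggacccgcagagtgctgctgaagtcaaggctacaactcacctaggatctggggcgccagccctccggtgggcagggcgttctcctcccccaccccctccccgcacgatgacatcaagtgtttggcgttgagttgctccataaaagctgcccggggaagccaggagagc
CA9 (chr9:35673678-35673927, plus strand): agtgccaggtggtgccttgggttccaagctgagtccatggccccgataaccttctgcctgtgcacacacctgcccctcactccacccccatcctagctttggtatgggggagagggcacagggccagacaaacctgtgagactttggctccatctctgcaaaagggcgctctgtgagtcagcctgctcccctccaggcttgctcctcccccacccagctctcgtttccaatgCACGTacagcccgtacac
EPAS1 (chr2:46297157-46297406, plus strand): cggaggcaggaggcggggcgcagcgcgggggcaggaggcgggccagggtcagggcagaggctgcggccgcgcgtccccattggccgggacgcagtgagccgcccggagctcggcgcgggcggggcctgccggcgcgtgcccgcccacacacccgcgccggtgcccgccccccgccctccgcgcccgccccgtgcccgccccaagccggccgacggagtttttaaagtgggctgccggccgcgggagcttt
EGLN3 (chr14:33951075-33951324, minus strand): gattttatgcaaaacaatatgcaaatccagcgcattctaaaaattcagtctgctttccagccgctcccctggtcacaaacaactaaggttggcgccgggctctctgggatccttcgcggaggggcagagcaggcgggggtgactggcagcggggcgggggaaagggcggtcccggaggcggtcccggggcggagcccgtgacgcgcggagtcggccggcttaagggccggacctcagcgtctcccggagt

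In the windows shown HK2 held the CACGTG form at 2 places, LDHA at 2 and BNIP3 at 1, while PDK1 held 2 single copies next to the start shown. Neither CA12, the gene with the widest line difference, nor EPAS1 or EGLN3 held ACGTG in this window. CA12 and EPAS1 each held the other core, GCGTG, at 1 place, and EGLN3 held 0. ALDOA, also called higher in SUM225 at both weeks, held ACGTG before each of its 3 start sites. Other members of the list had further matches, and NDRG1, VEGFA, SLC2A3 and BNIP3L were not matched.

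Next, the change from 2 to 6 weeks, when lesions grow in the ducts, was read within each line. In DCIS.COM 7 of the 40 genes rose and 3 fell, where 22.6% of all named genes were called higher and 20% lower. With the arrays centered on their medians 14 rose, where 25.9% of all genes did, and SAM (significance analysis of microarrays) called 15 higher, against 29.2%. Their median change was 0.30, against -0.14 for all genes and 0.12 for named genes with a mean of at least 5, which all 40 had. The median of the 40 was -0.04 when the arrays were quantile normalized again, with 2 higher and 5 lower. The count of rises was 14 without replicate 1 of 2 weeks (32.9% of all genes), 3 without replicate 2 and 4 without replicate 3 of 2 weeks, and 3 without replicate 1 or replicate 3 of 6 weeks. From 2 to 10 weeks 7 rose and 2 fell (background 21.1% and 15.9%), and 5 genes (CA12, PDK3, GPI, ALDOC and BPGM) were called higher and 2 (EGLN3 and VEGFA) lower at both later weeks (18% and 13.2% of all genes), in comparisons that share the 2-week arrays. The 10-week count of rises was 14 without replicate 1 of 2 weeks (30.2% of all genes), 8 without replicate 1 of 10 weeks and 2 without any other array. From 2 to 6 weeks the other-cell markers fell as well, in 9 of 16 leukocyte, 7 of 10 endothelial, 4 of 6 erythroid, 3 of 6 adipocyte, 3 of 8 muscle and 2 of 9 fibroblast genes, while 1 leukocyte and 1 endothelial marker rose. Of 18 epithelial markers 7 rose and 1 fell, with a median change of 0.57, and the part of these markers in the changes of the 40 genes was not tested. Of the 10 calls at 6 weeks, BPGM, CA12 and EGLN3 held under every alternative run and PDK3 under all but the repeated quantile normalization (adjusted p = 0.0746).

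BPGM made the largest rise in DCIS.COM, 5.81-fold by 6 weeks (2.54 ± 0.30 SE, adjusted p = 0.00272), from values of 4.91 to 6.23 at 2 weeks to 7.86 to 8.37. CA12 rose 2.81-fold (1.49 ± 0.23 SE, adjusted p = 0.00549), and 5 of its 7 probe sets were called higher. PDK3, a pyruvate dehydrogenase kinase encoded on the X chromosome, read 9.01, 9.07 and 9.39 at 2 weeks, 10.15, 10.53 and 10.11 at 6 weeks and 9.55, 10.10 and 9.64 at 10 weeks in DCIS.COM. All 5 PDK3 probe sets were called higher at 6 weeks, the brightest by 2.15-fold (1.11 ± 0.17 SE, adjusted p = 0.00575). GPI, the isomerase that makes fructose 6-phosphate, read 10.47, 9.89 and 10.03 at 2 weeks, 10.94, 10.61 and 10.98 at 6 weeks and 10.89, 10.77 and 10.52 at 10 weeks. Its arrays of 2 and 6 weeks did not overlap (change 0.71 ± 0.19 SE, adjusted p = 0.0244). ALDOC, the brain-type aldolase, read 6.91, 6.87 and 6.89 at 2 weeks, 7.67, 7.21 and 7.76 at 6 weeks and 7.81, 7.74 and 7.67 at 10 weeks, and its 3 values at 2 weeks lay below all later ones (change 0.65 ± 0.17 SE, adjusted p = 0.0230). EPAS1 (0.74 ± 0.23 SE, adjusted p = 0.0386) and PLOD2 (0.52 ± 0.17 SE, adjusted p = 0.0404) passed the threshold narrowly, and the EPAS1 change was -0.01 as the mean of its 3 probe sets. The PLOD2 call was lost without any 1 of the 6 arrays, and the EPAS1, GPI and ALDOC calls were lost without 4 of them (for GPI and ALDOC, all but replicate 2 of 6 weeks and replicate 1 of 2 weeks, and for EPAS1 all but replicate 2 of 6 weeks and replicate 3 of 2 weeks), with adjusted p up to 0.175 for GPI and 0.101 for ALDOC over their alternatives.

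In the same comparison 3 genes fell. EGLN3 fell by 1.19 (log2, SE 0.16, adjusted p = 0.00406) on 2 of 2 probe sets. VEGFA read 11.77, 12.05 and 12.02 at 2 weeks, 11.16, 11.30 and 11.37 at 6 weeks and 11.55, 11.28 and 10.80 at 10 weeks, and fell by 0.67 (log2, SE 0.15, adjusted p = 0.0143). ANGPTL4 read 9.71, 9.12 and 9.63 at 2 weeks, 9.09, 8.89 and 8.79 at 6 weeks and 9.77, 9.26 and 9.05 at 10 weeks and fell by 0.56 (log2, SE 0.18, adjusted p = 0.0452), but its 10-week values overlapped those of 2 weeks. The ANGPTL4 call held only when replicate 2 of 2 weeks was the array left out, and the VEGFA call was lost without replicate 1 of 6 weeks (adjusted p = 0.0596) or replicate 3 of 2 weeks (adjusted p = 0.0542). HIF1A changed by -0.03 ± 0.14 (SE, adjusted p = 0.875) and LDHA by 0.17 ± 0.15 (SE, adjusted p = 0.375). All 14 glycolytic enzymes had a positive change, between 0.12 and 2.54, of which 3 were called, where 22.6% of all named genes were called higher. The share of all named genes with a positive change was not counted. Named genes with a mean of at least 5 had a median change of 0.12.

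**Figure D4:**
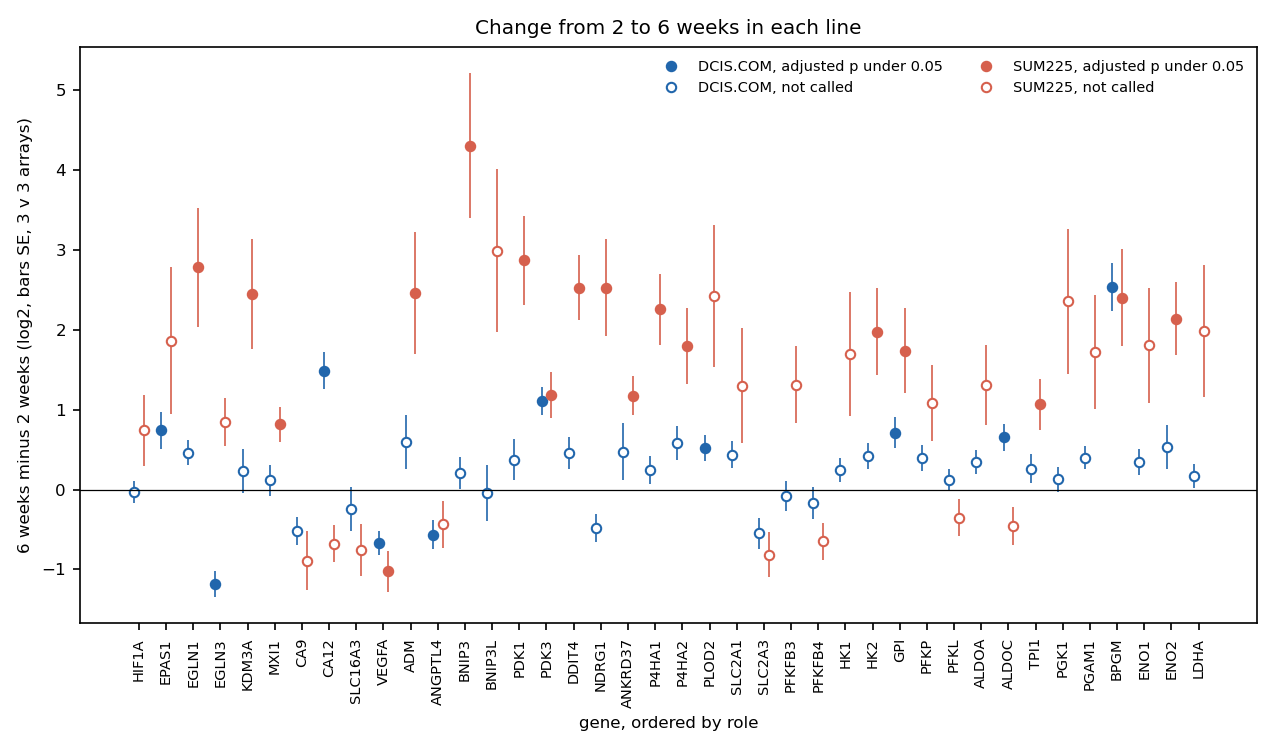
Change from 2 to 6 weeks (log2, with SE bars, 3 against 3 arrays) of the 40 genes along the x axis, DCIS.COM in blue and SUM225 in red, filled where the limma adjusted p was under 0.05. BPGM and PDK3 rose in both lines and VEGFA fell in both, whereas the large SUM225 changes carry long SE bars.

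In SUM225 the same comparison called 17 of the 40 genes higher and 1 lower (background 21.7% and 26.5%), with a median change of 1.71 against -0.38 for all genes. From 2 to 10 weeks it called 19 higher and 3 lower (background 25.1% and 33.6%), with a median of 1.61, and 15 genes were called higher at both weeks (20.4% of all genes) and 1 lower (25.4%). These calls rested on the 2-week group whose arrays spread widely. Leaving out any 1 of 5 of the 6 arrays of 2 and 6 weeks left 0 calls, and leaving out replicate 1 of 2 weeks gave 31 higher and 9 lower, where 38.1% and 50.3% of all genes were called. At 10 weeks 0 calls were left without replicate 2 of 2 weeks or replicate 2 or 3 of 10 weeks, 1 without replicate 1 of 10 weeks and 11 without replicate 3 of 2 weeks, while 31 higher and 7 lower were called without replicate 1 of 2 weeks (38.2% and 50% of all genes). With the arrays quantile normalized again 0 of the 40 and 9 of all named genes were called higher at 6 weeks, and limma with unadjusted p under 0.05 gave 26 higher and 5 lower of the 40 in the main setting, against 32.3% and 39.9% of all genes.

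In the SUM225 comparison of 6 with 2 weeks 11 of 16 leukocyte, 6 of 10 endothelial, 6 of 9 fibroblast, 5 of 6 erythroid, 5 of 8 muscle and 1 of 6 adipocyte markers fell. Of 18 epithelial markers 4 rose and 2 fell. Of all named genes 26.5% fell and 21.7% rose, and the part of mouse cells in the values of these human probe sets was not tested.

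The 6 largest called rises in SUM225 were those of BNIP3, PDK1, EGLN1, NDRG1, DDIT4 and ADM. BNIP3 read 7.98, 5.72 and 3.78 at 2 weeks, 10.18, 9.94 and 10.27 at 6 weeks and 9.93, 10.18 and 10.28 at 10 weeks in SUM225 and 10.19, 9.98 and 10.56 at 2 weeks, 10.76, 10.31 and 10.28 at 6 weeks and 10.99, 11.03 and 10.55 at 10 weeks in DCIS.COM. Its SUM225 change was 4.31 ± 0.90 (SE, adjusted p = 0.0382). PDK1 rose by 2.87 ± 0.56 from 6.51, 4.98 and 4.05 at 2 weeks, EGLN1 by 2.78 ± 0.74 from 8.08, 5.94 and 4.79 at 2 weeks and DDIT4 by 2.53 ± 0.41 from 9.80, 8.76 and 8.18 at 2 weeks (log2, SE). NDRG1 read 10.12, 9.17 and 7.43 at 2 weeks, 11.60, 11.40 and 11.31 at 6 weeks and 11.95, 11.55 and 12.003 at 10 weeks in SUM225 and 12.41, 12.29 and 12.70 at 2 weeks, 12.11, 11.73 and 12.11 at 6 weeks and 11.87, 12.22 and 11.50 at 10 weeks in DCIS.COM. ADM read 10.38, 9.40 and 6.998 at 2 weeks, 11.62, 11.50 and 11.04 at 6 weeks and 11.95, 11.46 and 12.02 at 10 weeks in SUM225, a change of 2.46 ± 0.76 (SE, adjusted p = 0.0437). In each of these genes the arrays of 2 weeks lay below all later SUM225 arrays, and replicate 3, the array with the lowest EPCAM, was the lowest of the 18.

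Because replicate 1 alone kept a later-like EPCAM level, it was set against the 6 later SUM225 arrays by itself, with no test. It was below all 6 in 23 of the 40 genes and above all 6 in 5, where the shares of all named genes were 34.4% and 42.2%, and 11 of 18 epithelial markers were below. The median gap to the later median was -0.28 for the 40 genes and -0.25 for the epithelial markers. The 6 genes with the largest called rises were picked with this array among those compared, so their gaps are no independent result. BNIP3 was 2.20 below the later median, DDIT4 1.74, PDK1 1.72, NDRG1 1.45, ADM 1.18 and EGLN1 1.12 (log2). EPCAM was 0.24 below. Among the other genes the largest gaps were those of ANKRD37, 1.59 below, MXI1, 1.26, and HK2, P4HA1 and ENO2, 1.13 each. These genes too were called higher with this array among those compared, so their gaps are no independent result either. HIF1A and EPAS1 were instead 0.18 and 0.25 above the later median and LDHA 0.15 below it. In a fit that kept only this array at 2 weeks and assumed it to vary like the 6-week arrays, 13 genes were called higher and 1 lower, with a median change of 0.34, where 14.4% and 8.36% of all genes were called and their median was -0.07. Replicate 2 was below all 6 later arrays in 31 genes and above in 9, where the shares of all named genes were 42% and 52.2%, and replicate 3 in 31 and 8, where they were 40.5% and 54.4%. The part of the leukocyte markers, 5.89 on this array, in these values was not tested.

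**Figure D5:**
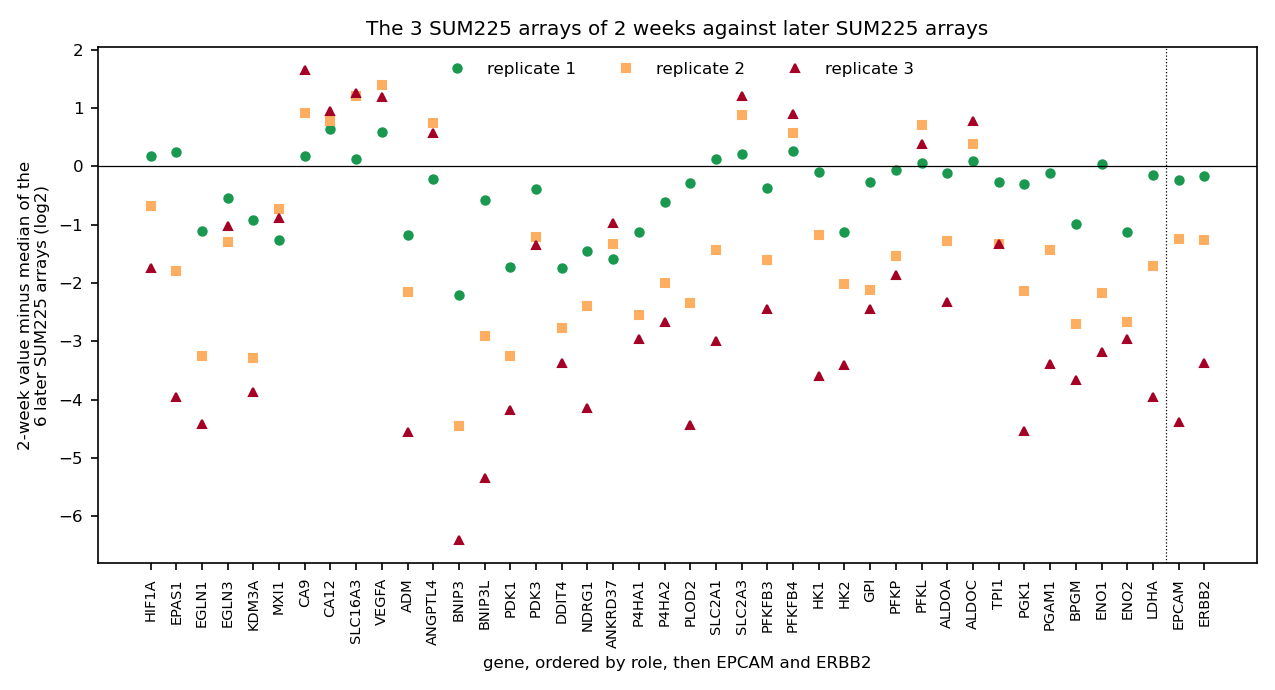
Values of the 3 SUM225 arrays of 2 weeks minus the median of the 6 later SUM225 arrays (log2) for the 40 genes and, right of the dotted line, EPCAM and ERBB2. Replicate 1 lay near 0 for EPCAM and for HIF1A, EPAS1 and LDHA but was 2.20 below for BNIP3, and replicates 2 and 3 lay further below for most genes.

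Both lines moved the same way from 2 to 6 weeks in 4 called genes. PDK3, GPI and BPGM rose in both, which is 7.5% of the 40 against 12.6% of all named genes, and VEGFA fell in both (2.5% against 13.6%). Other-cell markers fell in both lines over the same weeks, as given above. In SUM225 PDK3 read 9.05, 8.23 and 8.09 at 2 weeks, 9.71, 9.52 and 9.68 at 6 weeks and 9.07, 9.30 and 9.35 at 10 weeks and rose by 1.18 ± 0.29 (log2, SE), and GPI read 10.46, 8.60 and 8.27 at 2 weeks, 10.99, 10.73 and 10.82 at 6 weeks and 10.72, 10.44 and 10.59 at 10 weeks. VEGFA in SUM225 read 11.65, 12.47 and 12.25 at 2 weeks, 11.06, 11.08 and 11.16 at 6 weeks and 11.27, 10.88 and 11.02 at 10 weeks and fell by 1.02 (log2, SE 0.26, adjusted p = 0.0382). Its probe sets disagreed, since 1 of the other 3 rose in DCIS.COM by 0.88 (adjusted p = 0.038) and in the SUM225 line by 1.76 (adjusted p = 0.034), and the mean of all 4 changed by -0.14 and 0.14, neither called.

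Dim probe sets of EGLN1, ANKRD37, PFKP and PGK1 also went against the brightest ones in SUM225. That of EGLN1 fell by 1.05 from 2 to 6 weeks (log2, adjusted p = 0.0406), that of PGK1 by 1.23 (adjusted p = 0.0382), and from 2 to 10 weeks that of ANKRD37 fell by 1.01 (adjusted p = 0.049) and that of PFKP by 0.75 (adjusted p = 0.0492), and these had group means of 7.06 or less.

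EGLN3 and CA12 had changes of opposite sign in the 2 lines. The change of EGLN3 from 2 to 6 weeks was -1.19 ± 0.16 in DCIS.COM and 0.84 ± 0.30 in SUM225 (SE, the latter not called, adjusted p = 0.0551), and the difference between the lines was 2.03 ± 0.35 (SE, adjusted p = 0.0222). CA12 changed by 1.49 ± 0.23 and -0.68 ± 0.23 (SE, the latter not called, adjusted p = 0.0510), a difference of -2.16 ± 0.34 (SE, adjusted p = 0.0129). These were the only 2 of the 40 called in this test of 12 arrays, where 0.701% of all named genes had a larger and 0.539% a smaller change in SUM225. The EGLN3 call was lost without 7 of the 12 arrays in turn (DCIS.COM replicates 2 and 3 of 2 weeks and all 3 of 6 weeks, SUM225 replicate 2 of 2 weeks and replicate 3 of 6 weeks), and over its alternatives the adjusted p ran from 0.000895 to 0.0768. The CA12 call was lost without DCIS.COM replicate 3 of 2 weeks (adjusted p = 0.0509) or SUM225 replicate 3 of 6 weeks (adjusted p = 0.0563), within a range of 0.00147 to 0.0725. With only replicate 1 of SUM225 at 2 weeks they were 1.61 (adjusted p = 0.0768) and -2.02 (adjusted p = 0.0461). At 10 against 2 weeks CA12 was the 1 gene of the 40 called higher in DCIS.COM and lower in SUM225, and EGLN3 the 1 called the other way, where 0.209% and 0.241% of all genes did so.

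From 6 to 10 weeks, when DCIS.COM lesions turn invasive, none of the 40 genes was called in either line, where limma called 0.0157% of all named genes higher and 0.0% lower in DCIS.COM and 0.0% and 0.00523% in SUM225. At an unadjusted p under 0.05, 3 of the 40 passed in DCIS.COM and 6 in SUM225, where 3.71% and 7.1% of all named genes did. In DCIS.COM the largest changes were 0.66 ± 0.16 (SE) for BPGM, -0.64 ± 0.18 for CA12 and -0.50 ± 0.18 for PDK3, and in SUM225 0.53 ± 0.20 for PFKFB3 and 0.52 ± 0.14 for PDK1.

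At 2 weeks the lines were also compared, with the array spread given above. Of the 40 genes 8 were lower in SUM225 and 0 higher (background 2.36% and 0.0785%): CA12, PDK1, DDIT4, NDRG1, ANKRD37, P4HA1, PFKFB3 and HK2. Without SUM225 replicate 1 the count lower was 30 (22.1% of all genes), without SUM225 replicate 2 or DCIS.COM replicate 3 it was 1, without DCIS.COM replicate 1 it was 2 and without DCIS.COM replicate 2 it was 4. With replicate 1 as the only SUM225 array of 2 weeks 13 were lower and 1 higher, against 3.04% and 3.63% of all genes. HK2 on that array, 7.78, was still 3.57 below the lowest DCIS.COM array of 2 weeks, and CA12, 7.76, was 2.15 below.

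Other genes of the same pathways were read from lists of neighbors. Of 33 measured genes among 35 further hypoxia genes, 17 were lower and 5 higher in SUM225 at 6 weeks and 13 and 4 at 10 weeks. Of all named genes 17.3% were lower and 19.8% higher at 6 weeks, and 15.9% and 16.4% at 10 weeks. STC1, a hormone that regulates calcium and phosphate, differed by -4.79 ± 0.25 (SE) and -4.99 ± 0.27, LOX, which cross-links collagen, by -3.78 ± 0.21 and -4.17 ± 0.33, and IGFBP3, which binds insulin-like growth factors, by -3.30 ± 0.22 and -3.46 ± 0.29 at the 2 weeks. PPP1R3C, a glycogen-targeting phosphatase subunit, went the other way by 1.68 ± 0.14 and 2.59 ± 0.15. Of 32 measured genes among 33 further genes of glucose metabolism, 6 were lower and 7 higher at each week, a split close to the background. FBP1, a gluconeogenic phosphatase, was higher in SUM225 by 3.33 ± 0.11 and 3.35 ± 0.16 (SE) and PDK4, a pyruvate dehydrogenase kinase, by 2.64 ± 0.22 and 3.34 ± 0.21. SLC16A1, the lactate transporter MCT1, was lower by 2.33 and 2.63 (log2). In DCIS.COM from 2 to 6 weeks 7 of the 33 rose and 3 fell, with STC1 up by 1.41 ± 0.21, and 12 of the 32 rose and 6 fell, with PDK4 up by 2.01 ± 0.41. All named genes rose in 22.6% and fell in 20% in that comparison. In SUM225, where the shares of all genes were 21.7% and 26.5%, 15 of the 33 rose and 4 fell, and 9 of the 32 rose and 7 fell.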

How the data were processed

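RNA of human cells from 18 MIND xenograft samples was measured on Affymetrix U133 Plus 2.0 arrays. The authors deposited log2 intensities per probe set from RMA (background correction, quantile normalization and median polish), with Partek also named in the submitters' processing notes. Versions, genome build and annotation version are not given in the sources used here. The authors' tables of probe sets called by SAM gave gene symbols only: their fold change and q-value columns hold the authors' own comparisons and were not used, nor were the Wnt tables, which repeat values of the same arrays.

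The 62 control probe sets were left out of 54675. Each gene took its brightest named probe set, and 36793 probe sets carried 1 symbol. Every comparison was fitted with limma 3.58.1 (R 4.3.3) on only the arrays compared, 6 or, for the difference in change between lines, 12, with Benjamini-Hochberg adjustment over 54613 probe sets and a threshold of 0.05. The fit was tested on simulated data. An exact test of 3 against 3 arrays could not go below p = 0.1. Arrays give no counts, and precision is limited by their number. All arrays carried the same date, so no batch could be split. Replicates are biological per the labels, and p-values measure the spread between such pools.

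The members and lists were chosen with earlier results of these data known. Values per array were given for HIF1A and EPAS1, for the largest called changes within and between lines, for genes called in opposite directions and for genes whose probe sets disagreed. PFKP, LDHA, CA9, KDM3A and other members were named beyond that rule, after their values were seen, to account for each role. Promoters came from RefSeq. Alternatives were array centering, repeated quantile normalization, 1 fit over all arrays, a minimum mean of 5, variance trend with robust moderation, the mean of probe sets, a replicate block, SAM at a false discovery rate of 5% with 20 permutations, and leaving out arrays. Figures used matplotlib 3.10.9.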

Additional observations from a re-analysis of the deposited data

Results flagged for a closer look

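The change of EGLN3 from 2 to 6 weeks was larger in SUM225 than in DCIS.COM by 2.03 (log2, limma interaction, adjusted p = 0.0222), and that of CA12 differed by -2.16 (adjusted p = 0.0129). Both stood out because the difference between the lines itself passed its test, within the limits given with them above. For EGLN3 all 3 SUM225 arrays of 10 weeks lay above those of 2 weeks and all 3 DCIS.COM arrays of 10 weeks below those of 2 weeks, with mean changes of -1.02 in DCIS.COM and 1.14 in SUM225. The NDRG1 arrays were placed likewise, with mean changes of -0.6 in DCIS.COM (adjusted p above the threshold) and 2.93 in SUM225. The difference between the lines was not tested for 10 against 2 weeks, and the SUM225 values rest on the 2-week arrays whose EPCAM was 12.73, 11.72 and 8.59.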

How the results depend on the processing

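The counts of the line comparison at 6 and 10 weeks stayed within 1.5 times under every alternative except the fit over all 18 arrays, which gave 2 higher and 10 lower at 6 weeks and 12 lower at 10 weeks. Of all named genes that fit called 9.68% higher and 9.35% lower at 6 weeks and 10.1% lower at 10 weeks. With 1 array left out the median difference was -0.749 to -0.531 at 6 weeks. The 2-week comparisons moved more, and the causes were not tested. With arrays centered on their medians, which moved the median of all genes from -0.14 to 0.02 in DCIS.COM and from -0.38 to -0.12 in SUM225 from 2 to 6 weeks, 14 members rose in DCIS.COM by 6 weeks (median 0.466), 1 fell by 10 weeks in DCIS.COM and 1 in SUM225, and 4 were lower in SUM225 at 2 weeks. Of all named genes 25.9% rose by 6 weeks in DCIS.COM in that setting. By 10 weeks 5.05% fell in DCIS.COM and 20.6% in SUM225, and at 2 weeks 1.7% were lower in SUM225. Quantile normalization applied again gave 2 higher and 5 lower in DCIS.COM at 6 weeks (median -0.044), 2 and 4 at 10 weeks (median 0.032), 0 and 0 in SUM225 at 6 weeks (median 0.919), 3 higher at 10 weeks (median 1.037), 4 lower in SUM225 at 2 weeks (median -1.258) and 0 with a larger change in SUM225. Of all named genes it called 11.2% higher and 13.7% lower in DCIS.COM at 6 weeks and 9.63% and 11.1% at 10 weeks. In SUM225 it called 0.0471% higher and 0.0% lower at 6 weeks and 6.38% higher at 10 weeks. Between the lines at 2 weeks it called 1.65% lower in SUM225, and 0.356% had a larger change in SUM225. The fit over all 18 arrays gave 4 higher in DCIS.COM at 6 weeks, 3 at 10 weeks, 31 higher and 8 lower in SUM225 at 6 weeks, 31 and 7 at 10 weeks, 1 higher and 28 lower in SUM225 at 2 weeks, and 6 and 2 for the difference in change. The mean of all named probe sets gave 5 lower in DCIS.COM at 6 weeks, 1 at 10 weeks, 2 lower in SUM225 at 6 weeks (median 1.083) and a median of -1.229 between lines at 2 weeks, and it turned EPAS1 in DCIS.COM to -0.01 (-0.0117) at 6 weeks and VEGFA in SUM225 to 0.14 (0.1412) at 6 weeks and 0.20 (0.2025) at 10 weeks. Of all named genes that mean called 21.2% lower in DCIS.COM at 6 weeks, 16.5% at 10 weeks and 30.2% lower in SUM225 at 6 weeks. SAM gave 15 higher and 6 lower in DCIS.COM and 31 and 8 in SUM225 at 6 weeks. Of all named genes it called 29.2% higher and 46.8% lower in DCIS.COM and 42.1% and 49.6% in SUM225. Variance trend with robust moderation left 0 members with a smaller change in SUM225, where 0.67% of all named genes had one. With only replicate 1 of SUM225 at 2 weeks, assumed to vary like the other arrays, the SUM225 medians were 0.341 at 6 weeks and 0.238 at 10 weeks (0 lower), the lines at 2 weeks gave 1 higher and 13 lower (median -0.796), and the difference in change gave 2 higher (median 0.156). With 1 array left out, the counts higher and lower were 3 to 14 and 1 to 4 in DCIS.COM at 6 weeks, 2 to 14 and 0 to 4 at 10 weeks, 0 to 31 and 0 to 9 in SUM225 at 6 weeks (median 0.935 to 2.387), 0 to 31 and 0 to 7 at 10 weeks (median 1.076 to 2.317), 0 to 1 and 1 to 30 between lines at 2 weeks (median -2.505 to -1.177), and 0 to 27 and 0 to 4 for the difference in change (median 0.683 to 1.864). The shares of all named genes moved as well. At 6 weeks 7.65% to 32.9% were higher and 1.63% to 33.5% lower in DCIS.COM. In SUM225 0.0% to 38.1% were higher and 0.0% to 50.3% lower at 6 weeks. Between the lines at 2 weeks 0.0% to 22.4% were higher and 0.471% to 22.1% lower. In 0 of 9 comparisons did every same-numbered pair of arrays correlate over 0.1 (r from -0.52 to 0.63), so the arrays were not treated as paired. In SUM225 at 6 against 2 weeks, though, 5 of 6 arrays correlated best with their own number (r from 0.02 to 0.35). Between the lines at 2 weeks 3 of 6 did (r from 0.05 to 0.63). A replicate block gave 2 higher and 1 lower in DCIS.COM at 10 weeks, 30 higher in SUM225 at 6 weeks and 16 lower in SUM225 at 2 weeks. Of all named genes the block called 9.86% higher and 1.51% lower in DCIS.COM at 10 weeks. It called 31.0% higher in SUM225 at 6 weeks and 7.97% lower in SUM225 at 2 weeks.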
